A study of Homo sapiens with 6 samples.

Results

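The genes described here code for 10 RNA-binding proteins that choose alternative exons: MBNL1, MBNL2, MBNL3, RBFOX2, CELF1, PTBP1, PTBP2, PTBP3, QKI and TIA1. They were taken by symbol from a deposited table of 36651 genes, and each of the 10 symbols was found once. Transcript levels came from RNA sequencing of polyA-selected RNA of HCT116, an epithelial colorectal carcinoma cell line. The series holds 3 libraries labelled siMTA1 and 3 control libraries. The siMTA1 libraries carry that name in the design text and siMTA in their descriptions, but CrMTA1 in their titles, and the labels do not say how MTA1 was lowered. The control libraries are called control in the descriptions and WT in the titles and the design text, with no further account of what the control cells received. Both groups are the same cell line, with no other allele or agent given. MTA1 is a subunit of the nucleosome remodelling and deacetylase complex NuRD, and the title of the series links it to expression and alternative splicing. Exon usage was not analysed here, so every value is the level of a whole gene.

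These proteins bind short RNA motifs in and around exons, and the same protein can favour or block an exon depending on whether it sits downstream or upstream of it. MBNL proteins are zinc finger proteins known from myotonic dystrophy, in which expanded repeat RNA holds them in nuclear foci, and CELF1 opposes them at several of their exons. PTBP1 is a repressor that binds pyrimidine-rich RNA, and it keeps its neuronal paralog PTBP2 low in other cells by causing an exon of PTBP2 to be skipped, which exposes that transcript to decay. Several of these genes contain exons that they or their paralogs regulate, and the paralogs share sequence as well as function.

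The exons printed here are shown because they are the regulated, coding stretches in which the paralogs can be set side by side. They were read from the GENCODE 29 transcripts on GRCh38, 5′ to 3′ on the strand of the gene, and capitals mark bases that all sequences of a set have in common. The 54-base exon of MBNL1 (chr3:152446704-152446757, plus strand) and of MBNL2 (chr13:97356796-97356849, plus strand) is known to affect how much of the protein is in the nucleus. It was annotated in 5 of 19 coding transcripts of MBNL1 and 1 of 5 of MBNL2, and 45 of the 54 bases were identical (83.3%).
MBNL1: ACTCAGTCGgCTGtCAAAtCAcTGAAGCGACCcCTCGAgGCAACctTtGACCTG
MBNL2: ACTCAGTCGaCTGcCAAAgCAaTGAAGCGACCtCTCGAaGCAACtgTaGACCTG

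A 36-base exon was annotated in all 3 MBNL genes, in MBNL1 at chr3:152455542-152455577 (plus strand), in MBNL2 at chr13:97365136-97365171 (plus strand) and in MBNL3 at chrX:132384663-132384698 (minus strand). Of its 36 bases, 26 were identical in the 3 genes.
MBNL1: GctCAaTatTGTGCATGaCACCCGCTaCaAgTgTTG
MBNL2: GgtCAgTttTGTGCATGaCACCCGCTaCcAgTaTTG
MBNL3: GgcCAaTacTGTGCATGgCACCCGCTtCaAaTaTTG

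The 34-base exon of the PTBP genes codes for part of the third RNA recognition motif, and skipping it in PTBP1 or PTBP2 shifts the reading frame. It lies at chr19:807869-807902 (plus strand) in PTBP1, chr1:96806419-96806452 (plus strand) in PTBP2 and chr9:112231380-112231413 (minus strand) in PTBP3. PTBP1 and PTBP2 were identical at 25 of 34 bases, PTBP1 and PTBP3 at 22, and all 3 genes at 19.
PTBP1: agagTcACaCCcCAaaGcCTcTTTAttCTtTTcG
PTBP2: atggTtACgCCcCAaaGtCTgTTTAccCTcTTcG
PTBP3: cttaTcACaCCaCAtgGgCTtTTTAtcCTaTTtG

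Each exon was searched on both strands for TGCATG, the motif of RBFOX proteins, for TCTT, a motif of PTBP proteins, for ACTAA, the core of the QKI motif, and for TGTGT, a motif of CELF proteins. All 3 of the 36-base MBNL exons held TGCATG on the transcript strand, starting at base 12 of the exon. The same 6 letters were found in 10 of the 710 coding exons of 36 bases in the annotation, or 1.41%, and these 3 are among the 10. TCTT was found in the 34-base exon of PTBP1, starting at bases 20 and 27, and in that of PTBP2, starting at base 29, and 13.6% of the 346 coding exons of 34 bases held it. No other start of the 4 motifs was found in the 8 exons on either strand. A match of letters describes the sequence and does not show binding.

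The level of MTA1 checks the labels. It was 44.55, 43.98 and 47.97 FPKM in siMTA1 libraries 1, 2 and 3, against 65.90, 67.61 and 66.74 FPKM in control libraries 1, 2 and 3. The mean of MTA1 in siMTA1 libraries was 68.2% of the control mean, so most of the transcript remained. FPKM divide the fragments of a gene by its length and by the size of the library. Levels of different genes can be compared only as far as the lengths used apply, and those lengths are not given. The depth implied by the steps of low values was 57400000 to 66900000 fragments in siMTA1 libraries and 43400000 to 65500000 in control libraries. Among 10 epithelial markers, 8 reached a mean of 1 FPKM, and the other 2, the intestinal genes CDX1 and VIL1, were at or below 0.04 FPKM. By the limma test described with the members, CDH1 was higher with siMTA1 and KRT8 and KRT18 were lower. The intestinal genes CDX2 and KRT20 were expressed, at means over the 6 libraries of 4.45 and 4.69 FPKM. Of 18 listed markers of immune, stromal, endothelial, muscle and neural cells, 17 were found, of which 12 were below a mean of 1 FPKM. Their summed level was 46.09 to 49.87 FPKM in siMTA1 libraries and 38.81 to 40.24 FPKM in control libraries, most of it from TUBB3. Among the 5 above 1 FPKM, TUBB3 (limma adjusted p = 0.00723) and DES (0.00398) were higher, and SYT1 (0.0184) was lower. For both marker lists the background is the 18.2% of all tested genes that passed the same test. The part of these markers in the differences given here was not tested. In bulk RNA, fewer cells with a transcript and less of it per cell cannot be told apart.

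The 10 genes covered a wide span of levels, and their order was nearly the same in both groups. PTBP1 was highest, at 54.13 to 59.34 FPKM in siMTA1 libraries and 52.46 to 60.12 FPKM in control libraries. RBFOX2 came next, with a mean of 16.2 FPKM in siMTA1 libraries and 15.5 FPKM in control libraries. CELF1, MBNL2, PTBP3 and MBNL1 lay close together, with means of 9.20 to 12.5 FPKM in siMTA1 libraries and 8.82 to 14.3 FPKM in control libraries. TIA1 followed, then QKI, and PTBP2 and MBNL3 were below 0.7 FPKM in every library. MBNL2 overlapped with PTBP3, and PTBP3 with MBNL1, in siMTA1 libraries. In control libraries RBFOX2 overlapped with MBNL2, and CELF1 with PTBP3. All other neighbours in the order had ranges that did not overlap.

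**Figure D1:**
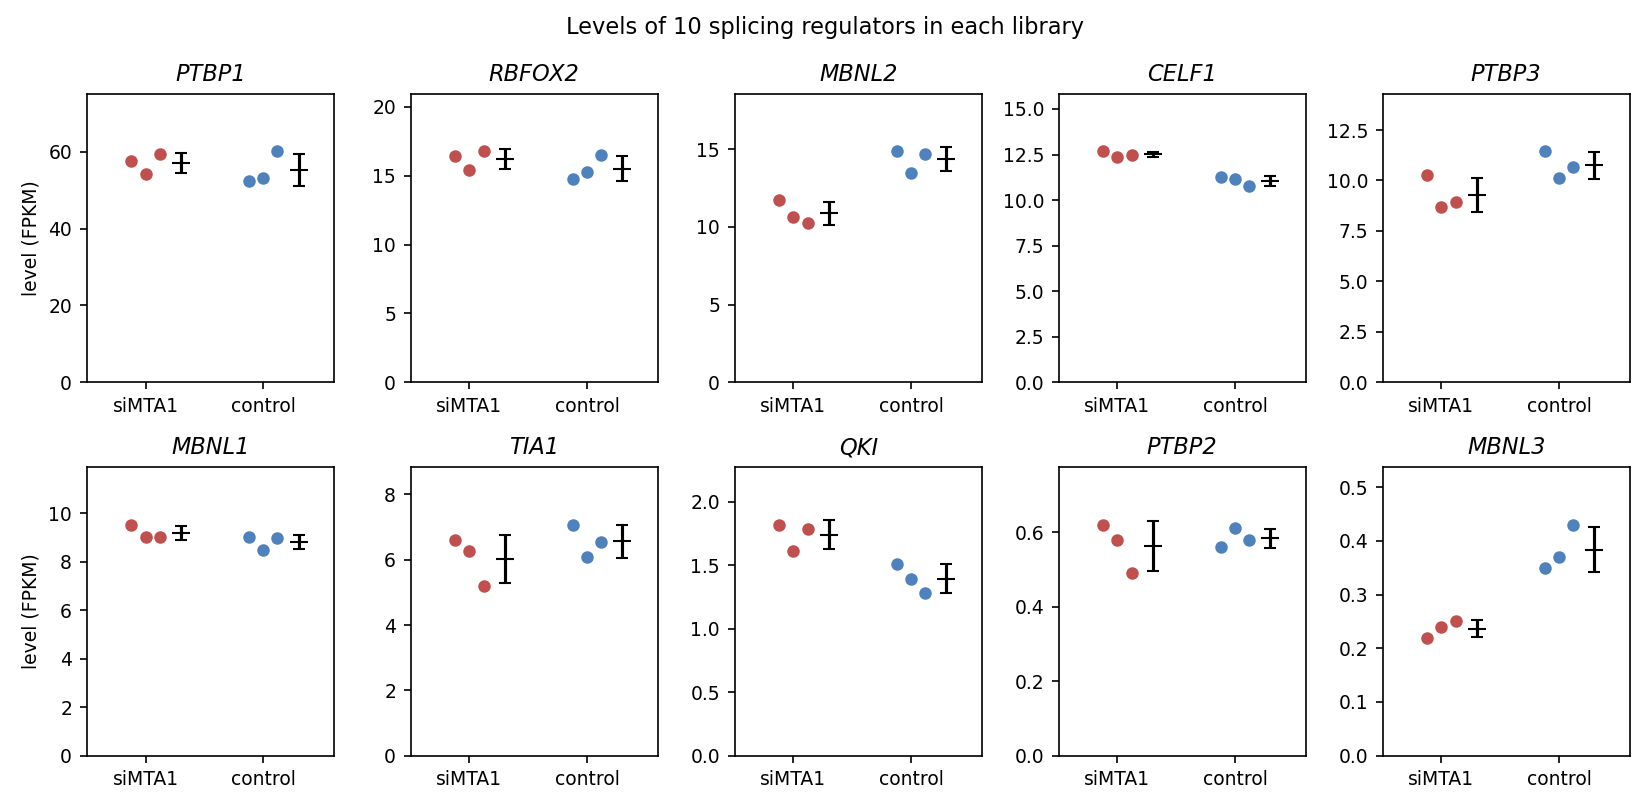
Level of each of the 10 genes in FPKM, with siMTA1 libraries in red to the left of control libraries in blue, 1 point per library, and the mean with its SD (n = 3) as a black mark; each panel has its own axis from 0. MBNL2 and MBNL3 were lower in all 3 siMTA1 libraries than in any control library, and CELF1, QKI and, by the last printed digit, MBNL1 were higher.

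Among these genes MBNL2 fell with siMTA1, and it was the 1 member past the test. Testing was limited to genes that averaged 1 FPKM or more and was done with limma on log2(FPKM + 1), and an adjusted p under 0.05 was called a change. That left 8 of the 10 members, of which 1 was lower and 0 were higher, or 12.5%, beside 18.2% of all 12141 tested genes, of which 12.1% were lower. With 1 of 8 called, the members were near that background. Their median log2 fold change was 0.05, against −0.05 for all tested genes. The split of all called genes was 744 higher and 1463 lower, and 1128 and 802 after median centring. At an unadjusted limma p under 0.05, 2 members were higher and 2 lower, and 35% of all tested genes passed. The count of called members was 0 where no filter on low values was applied, 2 with upper-quartile scaling or quantile normalization, and 3 with median centring, array weights or the replicate number as a block. Of all tested genes, 1.56% were called with no filter, 16% with upper-quartile scaling and 15.7% with quantile normalization. Median centring called 15.9%, array weights 33.3% and the replicate block 25.0%. The values of the groups did not overlap in 4 of the 8 tested members, beside 39.1% of all tested genes.

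**Figure D2:**
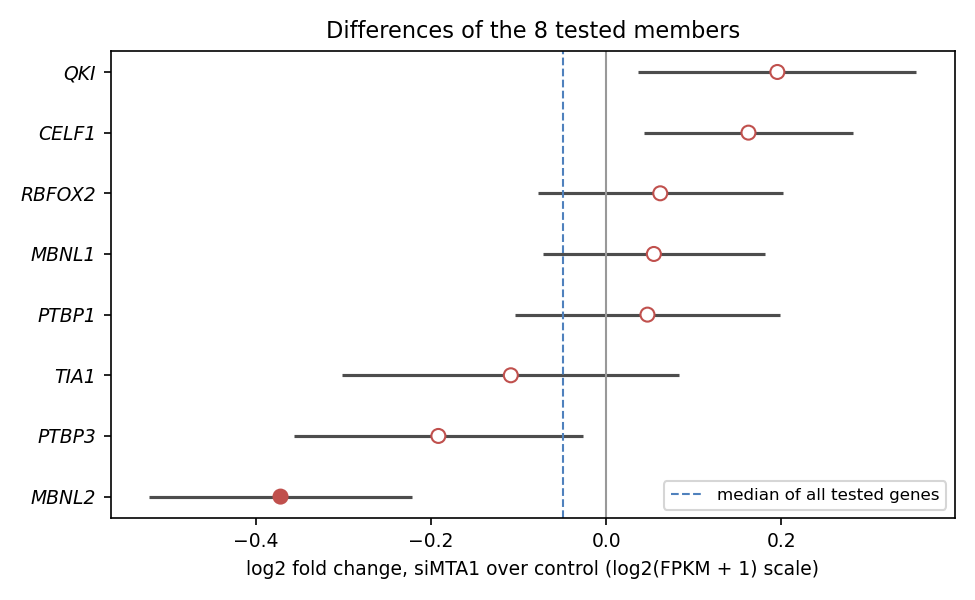
Log2 fold change of siMTA1 over control for the 8 tested genes (x axis, log2(FPKM + 1) scale) with its 95% interval from limma as a bar; a filled point passed an adjusted p of 0.05, and the dashed line is the median of all tested genes at −0.05. MBNL2, at the bottom, is the filled point, at −0.37.

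MBNL2 (chromosome 13 from 97221434 to 97394120, plus strand, GRCh38) was at 11.70, 10.65 and 10.24 FPKM in siMTA1 libraries 1, 2 and 3 and at 14.87, 13.45 and 14.71 FPKM in control libraries 1, 2 and 3. Every siMTA1 library was below every control library. The means were 10.9 ± 0.753 FPKM in siMTA1 libraries and 14.3 ± 0.778 FPKM in control libraries (SD, n = 3 each), so that 75.7% of the control level remained. The log2 fold change was −0.37 (SE 0.07, 95% interval −0.52 to −0.22, limma adjusted p = 0.00693). Permuting the 6 values in every way, an exact two-sided test, gave p = 0.1, below which a design of 3 against 3 cannot go. The call held in 17 of 18 alternatives, with log2 fold changes of −0.42 to −0.29. It ended where all 36651 genes were tested without a filter (adjusted p = 0.0818). With each library left out in turn the adjusted p was 0.0101 to 0.0304.

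MBNL1 (chromosome 3 from 152243828 to 152465780, plus strand), the paralog best known from muscle, did not pass the test. It was at 9.53, 9.04 and 9.03 FPKM in siMTA1 libraries and 9.02, 8.48 and 8.97 FPKM in control libraries. The lowest siMTA1 value was above the highest control value by the last printed digit. On the log2 scale it differed by 0.05, with a 95% interval of −0.07 to 0.18 (limma adjusted p = 0.528). The interval for MBNL1 lies above that for MBNL2, but the difference between the paralogs was not itself tested.

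MBNL3 (chromosome X from 132369317 to 132489968, minus strand), a paralog studied in developing muscle and liver cancer, was the lowest of the 10 genes. It was at 0.22, 0.24 and 0.25 FPKM in siMTA1 libraries and 0.35, 0.37 and 0.43 FPKM in control libraries. The groups did not overlap, and the mean of siMTA1 libraries was 61.7% of the control mean. MBNL3 was below the filter, so that it has no main test. With a minimum mean of 0.1 FPKM the adjusted p was 0.126, and with no filter it was 0.106, on a log2 scale that compresses values this low. The implied depth puts about 154 to 196 fragments behind each siMTA1 value and 185 to 344 behind each control value, if the exon lengths of GENCODE 29 apply.

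As a family, the MBNL genes were led by MBNL2 in FPKM in all 6 libraries, and its share was smaller with siMTA1. The lead depends on gene length, which is 9989 bases for MBNL1 and 4908 for MBNL2 in GENCODE 29. With those lengths, siMTA1 libraries held 5464 to 6041 implied fragments of MBNL1 and 3076 to 3497 of MBNL2. Control libraries held 3910 to 5869 of MBNL1 and 3167 to 4729 of MBNL2. MBNL2 made up 54.5%, 53.4% and 52.5% of the summed MBNL level in siMTA1 libraries 1, 2 and 3, against 61.3%, 60.3% and 61.0% in control libraries. MBNL1 made up 44.4% to 46.3% in siMTA1 libraries and 37.2% to 38.0% in control libraries. The summed MBNL level was 19.52 to 21.45 FPKM in siMTA1 libraries and 22.30 to 24.24 FPKM in control libraries, without overlap. These sums and shares are descriptions without a test, and fragments from stretches the paralogs share could have been assigned to either.

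**Figure D3:**
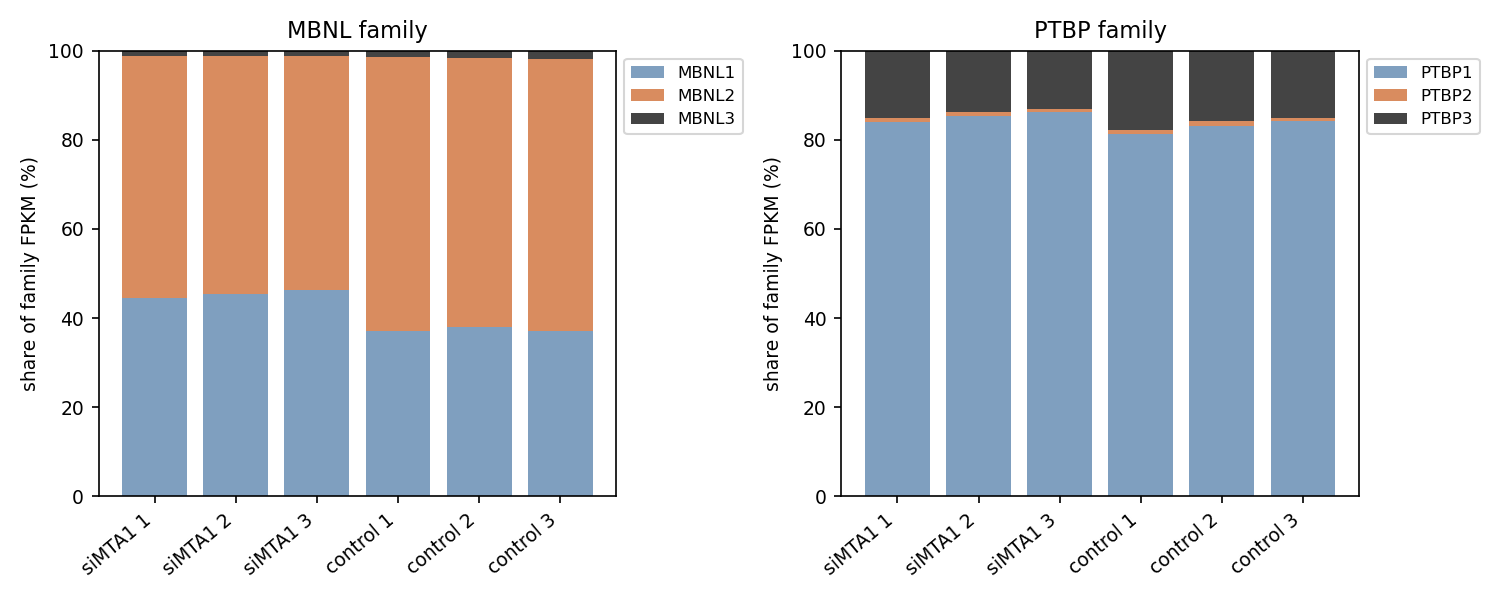
Share of each paralog in the summed FPKM of its family (y axis, %), 1 bar per library, with the MBNL family on the left and the PTBP family on the right and siMTA1 libraries left of control libraries. MBNL2 (orange, left) held 52.5% to 54.5% in siMTA1 libraries and 60.3% to 61.3% in control libraries, while PTBP1 (blue, right) held 84.1% to 86.3% and 81.4% to 84.2%.

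CELF1 (chromosome 11 from 47465933 to 47565569, minus strand), which binds GU-rich RNA and also promotes the decay of messages that carry it, missed the threshold. It was at 12.68, 12.39 and 12.45 FPKM in siMTA1 libraries and 11.27, 11.18 and 10.76 FPKM in control libraries. All 3 siMTA1 values were above all 3 control values. The log2 fold change was 0.16 (SE 0.05, 95% interval 0.04 to 0.28, limma adjusted p = 0.0608). It passed in 5 of 18 alternatives, namely upper-quartile scaling (adjusted p = 0.0294), quantile normalization (0.0255), median centring (0.0249), array weights (0.0204) and the replicate number as a block (0.0429), and over all 18 the adjusted p was 0.0204 to 0.151. The start of CELF1 overlaps exons of 2 genes on the opposite strand, and no source used here says whether counting was stranded. These are NDUFS3, of respiratory complex I, at 16.5 ± 1.17 FPKM in siMTA1 libraries and 19.5 ± 0.575 FPKM in control libraries (SD, n = 3 each, limma adjusted p = 0.0352), and PTPMT1, a mitochondrial phosphatase, which differed by −0.25 on the log2 scale (adjusted p = 0.0875). Both had a sign opposite to that of CELF1, and reads of the overlap cannot be assigned without strand.

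In FPKM, MBNL2 and CELF1 stood in opposite order in the 2 groups. CELF1 was above MBNL2 in all 3 siMTA1 libraries, and MBNL2 was above CELF1 in all 3 control libraries. The ratio of MBNL2 to CELF1 within a library was 0.923, 0.860 and 0.822 in siMTA1 libraries 1, 2 and 3, against 1.32, 1.20 and 1.37 in control libraries. The pair was picked with its values known, so the ratio is given as a description without a test. Which of the 2 genes is above the other also depends on the gene lengths behind the FPKM, which are not given. With GENCODE 29 lengths, siMTA1 libraries held 7607 to 8664 implied fragments of CELF1 and 3076 to 3497 of MBNL2. For control libraries these were 5112 to 7366 of CELF1 and 3167 to 4729 of MBNL2. In implied fragments CELF1 was thus above MBNL2 in both groups.

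PTBP1 (chromosome 19 from 797075 to 812327, plus strand) did not pass the test. It was at 57.61, 54.13 and 59.34 FPKM in siMTA1 libraries and 52.46, 53.10 and 60.12 FPKM in control libraries, and the groups overlapped. The log2 fold change was 0.05, with a 95% interval of −0.10 to 0.20 (limma adjusted p = 0.650).

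PTBP2 (chromosome 1 from 96721665 to 96823738, plus strand) was at 0.62, 0.58 and 0.49 FPKM in siMTA1 libraries and 0.56, 0.61 and 0.58 FPKM in control libraries. The groups overlapped, and the gene was below the filter. PTBP1 stood 92.9, 93.3 and 121 times above PTBP2 in siMTA1 libraries, and 93.7, 87.0 and 104 times in control libraries, so that these ratios overlapped too. With a minimum mean of 0.1 FPKM the log2 fold change of PTBP2 was −0.02 (limma adjusted p = 0.879).

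PTBP3 (chromosome 9 from 112217716 to 112333667, minus strand), a paralog also called regulator of differentiation and prominent in blood cells, was at 10.26, 8.69 and 8.95 FPKM in siMTA1 libraries. In control libraries it was at 11.45, 10.11 and 10.69 FPKM, so that siMTA1 library 1 lay within the control range. The log2 fold change was −0.19 (SE 0.07, 95% interval −0.36 to −0.03), and it did not pass (limma adjusted p = 0.0972). It passed with the replicate number as a block (adjusted p = 0.0305), and over all 18 alternatives the adjusted p was 0.0305 to 0.355. In the PTBP family PTBP3 held 13.0% to 15.0% of the summed level in siMTA1 libraries and 15.0% to 17.8% in control libraries. The summed PTBP level was 66.9 ± 3.03 FPKM in siMTA1 libraries and 66.6 ± 4.20 FPKM in control libraries (SD, n = 3 each).

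RBFOX2 (chromosome 22 from 35738736 to 36028425, minus strand), the RBFOX paralog found in many tissues besides muscle and brain, did not pass. It was at 16.46, 15.43 and 16.78 FPKM in siMTA1 libraries and 14.74, 15.27 and 16.52 FPKM in control libraries, with overlap. Its log2 fold change was 0.06, with a 95% interval of −0.08 to 0.20 (limma adjusted p = 0.516).

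QKI (chromosome 6 from 163414000 to 163578596, plus strand), a KH-domain protein that acts in myelinating cells and in the splicing changes of epithelial-mesenchymal transition, was at 1.82, 1.61 and 1.79 FPKM in siMTA1 libraries. In control libraries it was at 1.51, 1.39 and 1.28 FPKM, below every siMTA1 library. The mean of siMTA1 libraries was 125% of the control mean. On the log2(FPKM + 1) scale, which understates changes of low genes, the log2 fold change was 0.20 (SE 0.07, 95% interval 0.04 to 0.35). Where 0.1 FPKM was added in place of 1, the log2 fold change was 0.30. QKI did not pass the main test (limma adjusted p = 0.0826). It passed with median centring (adjusted p = 0.0401) and array weights (0.0249), within a range of 0.0249 to 0.196 over 17 alternatives.

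TIA1 (chromosome 2 from 70209444 to 70248660, minus strand) binds U-rich RNA next to 5′ splice sites and is a component of stress granules. It was at 6.61, 6.28 and 5.20 FPKM in siMTA1 libraries and 7.07, 6.07 and 6.55 FPKM in control libraries. The groups overlapped, and siMTA1 library 3 was the lowest of all 6. Its log2 fold change was −0.11, with a 95% interval of −0.30 to 0.08 (limma adjusted p = 0.399). Exons of TIA1 overlap exons of C2orf42 on the same strand, whose log2 fold change was −0.16 (adjusted p = 0.148).

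Other genes of the same families were found for 13 of 14 listed symbols, and 7 were tested. By limma 0 of the 7 passed, and 1 was higher and 2 lower at an unadjusted p under 0.05, beside 18.2% and 35% of all tested genes, and the median of the 7 log2 fold changes was −0.10. The alternatives called 0 to 2 of them, and 1.56% to 33.3% of all tested genes. The smallest adjusted p values belonged to KHDRBS1, the signalling-linked STAR protein Sam68 related to QKI, and KHDRBS3, its relative. KHDRBS1 was at 104 ± 5.51 FPKM in siMTA1 libraries and 90.7 ± 3.98 FPKM in control libraries (SD, n = 3 each, limma adjusted p = 0.0508). KHDRBS3 was at 5.20 ± 0.144 FPKM in siMTA1 libraries and 6.10 ± 0.358 FPKM in control libraries (adjusted p = 0.0539). The groups did not overlap for either gene, nor for 5 of the 7 in all, beside 39.1% of all tested genes.

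Among 10 partner genes, which code for PTBP1 co-repressors and for the assembly that RBFOX proteins join, 2 were higher and 1 lower. That is 30.0% of the 10, beside 18.2% of all tested genes (6.13% higher and 12.1% lower), and their log2 fold changes had a median of 0.06. HNRNPH1, which binds runs of G, was at 196.6 ± 10.1 FPKM in siMTA1 libraries and 160.8 ± 12.8 FPKM in control libraries (SD, n = 3 each, log2 fold change 0.29, limma adjusted p = 0.0207). HNRNPUL2 was at 14.3 ± 0.761 FPKM in siMTA1 libraries and 12.4 ± 0.188 FPKM in control libraries (adjusted p = 0.0458). RAVER2, a PTBP-binding protein gene, fell to 5.30 ± 0.350 FPKM in siMTA1 libraries, against 6.62 ± 0.389 FPKM in control libraries (adjusted p = 0.0220). With single libraries left out the adjusted p was 0.0229 to 0.0796 for HNRNPH1, 0.0253 to 0.0781 for RAVER2 and 0.0612 to 0.148 for HNRNPUL2. Without siMTA1 library 1, siMTA1 library 2 or control library 3, 0 of the 10 passed, as where no filter was applied, and without control library 1 there was 1. In that order these settings called 12.4%, 8.79%, 13.7%, 1.56% and 14.6% of all tested genes.

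Among 25 other regulators of alternative exons, 19 were tested, and 1 was higher and 2 lower, or 15.8%, beside 18.2% of all tested genes, and the 19 log2 fold changes had a median of −0.02. The higher gene was PCBP3. PCBP3, a poly(C)-binding protein gene, was at 1.63 ± 0.139 FPKM in siMTA1 libraries and 0.893 ± 0.0551 FPKM in control libraries (SD, n = 3 each, limma adjusted p = 0.00313). Its control values, 0.95, 0.89 and 0.84 FPKM, were all below the 1 FPKM of the filter. PCBP3 thus entered the test only through its siMTA1 values. With a minimum mean of 0.1 FPKM its limma adjusted p was 0.00709. The lower genes were RBM47 and RBM38. RBM47, an RNA-binding protein of epithelial cells, was at 6.13, 5.74 and 5.13 FPKM in siMTA1 libraries and 9.79, 8.67 and 8.42 FPKM in control libraries (log2 fold change −0.58, limma adjusted p = 0.00168). RBM38, encoded by a target gene of p53, was at 6.82 ± 0.178 FPKM in siMTA1 libraries and 8.23 ± 0.454 FPKM in control libraries (SD, n = 3 each, adjusted p = 0.0254). Where no filter was applied, 1 of the 25 passed, beside 1.56% of all genes, and it was PCBP3. The RBM38 call also ended with quantile normalization (adjusted p = 0.0634), with median centring (0.0591) and without siMTA1 library 1 (0.0582), siMTA1 library 2 (0.0830), control library 2 (0.0740) or control library 3 (0.0691).

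**Figure D4:**
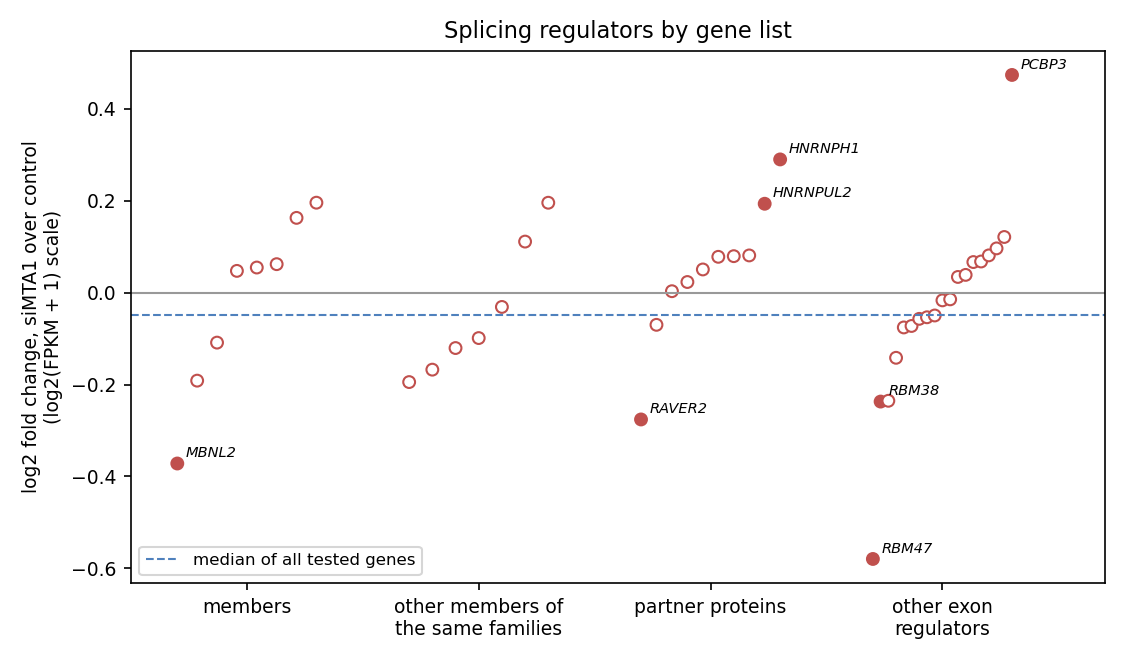
Log2 fold change of siMTA1 over control (y axis, log2(FPKM + 1) scale) for the tested genes of 4 lists, 1 point per gene in rising order within a list; filled points passed an adjusted p of 0.05 and are named, and the dashed line is the median of all tested genes. MBNL2 at −0.37 is the filled member, and RBM47 at −0.58 lies farthest from 0.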

How the data were processed

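The authors deposited 1 table of FPKM, printed to 2 decimals, for 36651 genes in 6 libraries, and columns were matched to samples by name. The submitters' processing notes name cutadapt, TopHat2, edgeR and GRCh38. No source used here gives the counting, the use of strand or the annotation release. The 12141 genes that averaged 1 FPKM or more were fitted with limma 3.58.1 in R 4.3.3 on log2(FPKM + 1), a scale that understates changes of low genes, with an intensity trend, two-sided and without covariates. P-values were adjusted by Benjamini and Hochberg over all tested genes, and 95% intervals are per gene. The fit was also run on values simulated with independent noise for each gene and library. These values hold no library-wide shift, so that run cannot speak to the choice of scaling. The design foresaw a count test, which FPKM do not allow. Depth was the value at which most low FPKM of genes shorter than 150 bases equalled 1 fragment (tolerance 0.04), and with it 94.2% to 97.1% of the low values were whole within 0.05 of a fragment beyond rounding. That share comes from the same short genes that set the depth, so it is no independent check of the depth. Of the gene identifiers, 35749 were found in GENCODE 29. Where a symbol had several rows, the highest was used. Python 3.11.15, pandas 2.3.3 and matplotlib 3.10.9 made the annotation and figures. The rule named all 10 members, MTA1, genes that overlap a member and reach a mean of 1 FPKM, and list genes past the test or, with fewer than 2, the 2 with the smallest adjusted p. Members and lists were chosen with earlier results of these data known. 1 gene of the list of other exon regulators is not reported here and is left out of its counts. Nothing in the labels calls the replicates separate cultures, so p-values cover only the spread among these 6 samples, possibly a technical one. The alternatives were other pseudocounts, filters, scalings, limma settings, a replicate block and each library left out.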

Additional observations from a re-analysis of the deposited data

How the results depend on the processing

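Of the alternatives to the values of single genes, 258 kept direction and side of the threshold, 27 lost the call, 19 gained one, and 0 reversed, MBNL3 and PTBP2 not counted. The number of all called genes was 2207, and 572 with no filter on low values, 4049 with array weights and 1046 to 1773 with a library left out (1066 without siMTA1 library 2 and 1046 without control library 2). Those are 18.2%, 1.56%, 33.3% and 8.62% to 14.6% of the genes tested in each setting. The share was 16% with upper-quartile scaling, 15.7% with quantile normalization, 15.9% with median centring and 25% with the replicate block. With TPM scaling it was 17%, and with a minimum mean of 5 FPKM 23.6%. The number of called members was 1, and 0 with no filter, 2 with upper-quartile scaling or quantile normalization and 3 with median centring, array weights or the replicate block. For other genes of the same families it was 0, and 2 with a minimum mean of 5 FPKM or array weights, 1 with TPM, upper-quartile scaling, quantile normalization, median centring or the replicate block, and 0 to 2 with a library left out (2 without control library 1). For partner genes it was 3, and 0 with no filter and 0 to 2 with a library left out (0 without siMTA1 library 1, siMTA1 library 2 or control library 3, and 1 without control library 1). For other exon regulators it was 3, and 1 with no filter and 5 with array weights. The cause of these differences was not tested. Without a filter the number of genes tested was larger (36651), and fewer samples remained where a library was left out. Deviations of same-numbered libraries from their group means correlated at 0.331, 0.022 and 0.219 for numbers 1, 2 and 3. Those of libraries with unlike numbers correlated at −0.277 to 0.071, and not every library correlated best with its own number. The labels give a shared number only, and whether same-numbered libraries were handled together was not tested. With the replicate block 992 genes were higher and 2039 lower. Low level limits MBNL3 and PTBP2, which no main test covers. QKI and PCBP3 were not tested where a mean of 5 FPKM was required.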
